A study of Homo sapiens with 47 samples.

Results

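The 10 genes ACTB, ACTG1, TMSB4X, TMSB10, PFN1, CFL1, MYL9, TAGLN, TPM1 and ACTN1, which encode actins, the proteins that bind actin monomers and proteins that bundle or contract filaments, were taken by name from the 25739 genes measured in single tumor cells. Each was measured in 37 circulating tumor cells (CTC) and in 6 cultured cells of the same line. The line is MDA-MB-231-LM2 (LM2), an established human triple-negative breast cancer line that metastasizes. The library names give no batch, and the study states that the cultured cells were processed alongside the CTCs. CTCs came from the blood of 5 NOD/SCID gamma mice that had received GFP-labeled LM2 cells in the mammary fat pad as young adults, were sampled when the tumor reached its end point, and were picked as GFP-positive, CD45-negative cells after size-based enrichment. There were 2 CTCs of mouse 5541, 4 of mouse 5542, 10 of mouse 5545, 17 of mouse 5546 and 4 of mouse 5549. Of the names from mouse 5546, 9 carry the letter c and 8 the letter s, a difference that the labels do not explain. The 6 cultured cells were picked from tissue culture, are all of 1 line and have no replicate culture, so the mouse was the replicate for CTCs and the culture was 1 sample. CTCs were taken from mouse blood, and the study describes alignment to the human genome, so reads of mouse RNA that match a human gene cannot be told apart from human reads in these values.

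Actin exists as free monomers and as filaments. Thymosin beta proteins hold monomers in reserve, profilin loads them onto growing filament ends, and cofilin severs old filaments. Alpha-actinin cross-links filaments and anchors them at adhesions, tropomyosin coats them, transgelin binds and stabilizes them, and the regulatory light chain of myosin II controls their contraction. Many genes of filament bundling and contraction are targets of serum response factor (SRF), which binds the CArG box and is held in check by free actin monomers through its cofactors. The stress fibers of attached cells are bundles of these parts.

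Values are read counts corrected by a size factor that the authors estimated for each cell. A log2 ratio sets the mean CTC value of a mouse over the mean value in culture, with 1 added to each mean. Reads on genes ranged from 469614 to 2041333 per CTC and from 776949 to 1186197 per cultured cell. The median log2 ratio of CTCs to culture was -1.56 over the 9164 genes with a mean of at least 8 in either with the deposited values. It was -0.81 over 8777 genes in CPM, where each cell is scaled to the same total of reads, and 0.31 over 13813 genes in the edgeR fit to reads summed per mouse. These medians differ in scaling, in the genes included and in whether cells were averaged or summed, and each of the 10 genes is read against the median of its own fit. A direction is given here only where all 3 scalings share it, and ratios of 2 genes within 1 cell, which no scaling changes, are given beside it.

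Of the 10 genes, TMSB10 and TMSB4X were higher in CTCs and ACTN1, TPM1 and TAGLN lower under all 3 scalings. The thymosins bind monomers, and ACTN1, TPM1 and TAGLN encode proteins of filaments, but this division does not hold for all genes of either kind. ACTB, ACTG1, PFN1, CFL1 and MYL9 changed direction with the scaling. Of these, PFN1 also encodes a protein that binds monomers, and MYL9 one of contraction. Outside the 10, PFN2 and CAP2, of monomer binding, were lower in CTCs, at -2.84 and -2.22 with deposited values. TAGLN met the rule of a 4-fold difference of the same direction in each of the 5 mice, against 5.31% of all genes tested that met it as lower and 0.0655% that met it as higher. In CPM none of the 10 met this rule, beside 1.56% of all genes that met it as lower and 0.137% as higher. No gene of the 10 passed edgeR's quasi-likelihood test after Benjamini-Hochberg adjustment over 13813 genes, where 0% of all genes were called in either direction, and DESeq2 called 0 of them and 0.119% of all genes as higher. At an unadjusted p under 0.05, edgeR had TMSB10, TMSB4X and CFL1 as higher, beside 1.01% of all genes, and ACTN1 as lower, beside 0.731%.

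Promoters of 7 of the 10 genes were found in RefSeq (GRCh38.p14), in 10 windows that span 250 bases before and 50 bases after a start site. There is no entry for ACTB, MYL9 or TAGLN. The CArG box, searched on both strands, was present in 2 of the 10 windows and in 1.29% of 35116 promoters of the same length. One was that of ACTG1, with the box 94 bases before the start site, and the other was 1 of 4 windows of ACTN1, with the box 171 bases before it. This ACTN1 window also held the MCAT motif CATTCC, which TEAD factors bind, and the TATA box TATAAA, at places that do not overlap the CArG box, and these are found in 14.0% and 11.5% of promoters. The window of PFN1 held the MCAT motif as well, 100 bases before the start site. A GC box, GGGCGG, was present in 8 of the 10 windows and in 45.0% of promoters, and is not marked. The windows of ACTG1 and ACTN1 are shown for the box, and those of the thymosins because these genes differ most from ACTN1. The capitals mark the CArG box, the MCAT motif and the TATA box, of which the TATA box of ACTN1 is on the opposite strand, and no capitals appear where none of these was found. Only the exact TATAAA was searched, so near matches to it, as in the TMSB10 window, are not marked.
ACTG1, chr17:81512750-81513049, minus strand: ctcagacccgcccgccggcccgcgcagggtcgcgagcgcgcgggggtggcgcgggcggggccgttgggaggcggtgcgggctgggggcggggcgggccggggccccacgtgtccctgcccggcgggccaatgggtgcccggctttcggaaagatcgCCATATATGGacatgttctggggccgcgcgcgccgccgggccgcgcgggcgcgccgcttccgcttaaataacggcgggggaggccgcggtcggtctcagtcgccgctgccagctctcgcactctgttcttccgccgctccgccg
ACTN1, chr14:68977517-68977816, minus strand: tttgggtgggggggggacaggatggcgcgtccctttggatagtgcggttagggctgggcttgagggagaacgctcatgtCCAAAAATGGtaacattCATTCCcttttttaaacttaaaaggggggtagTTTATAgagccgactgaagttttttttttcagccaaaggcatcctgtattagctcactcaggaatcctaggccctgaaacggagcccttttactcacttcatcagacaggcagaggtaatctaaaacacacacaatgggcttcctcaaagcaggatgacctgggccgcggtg
TMSB10, chr2:84905406-84905705, plus strand: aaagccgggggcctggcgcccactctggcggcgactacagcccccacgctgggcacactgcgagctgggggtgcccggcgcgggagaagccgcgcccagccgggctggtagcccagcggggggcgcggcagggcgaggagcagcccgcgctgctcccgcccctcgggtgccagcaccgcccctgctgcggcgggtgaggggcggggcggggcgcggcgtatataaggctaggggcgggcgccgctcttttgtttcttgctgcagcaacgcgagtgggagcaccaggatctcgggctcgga
TMSB4X, chrX:12974860-12975159, plus strand: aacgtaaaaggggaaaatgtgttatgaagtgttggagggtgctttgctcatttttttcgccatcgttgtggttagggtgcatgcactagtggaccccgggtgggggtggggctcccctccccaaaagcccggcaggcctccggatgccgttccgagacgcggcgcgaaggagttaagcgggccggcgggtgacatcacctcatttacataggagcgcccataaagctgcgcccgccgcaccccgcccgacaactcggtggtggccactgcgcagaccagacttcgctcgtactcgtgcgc

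The question for each gene was how its level in tumor cells in blood compared with that in the same line in a dish. The values of each gene in each cell are plotted by mouse.

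**Figure D1:**
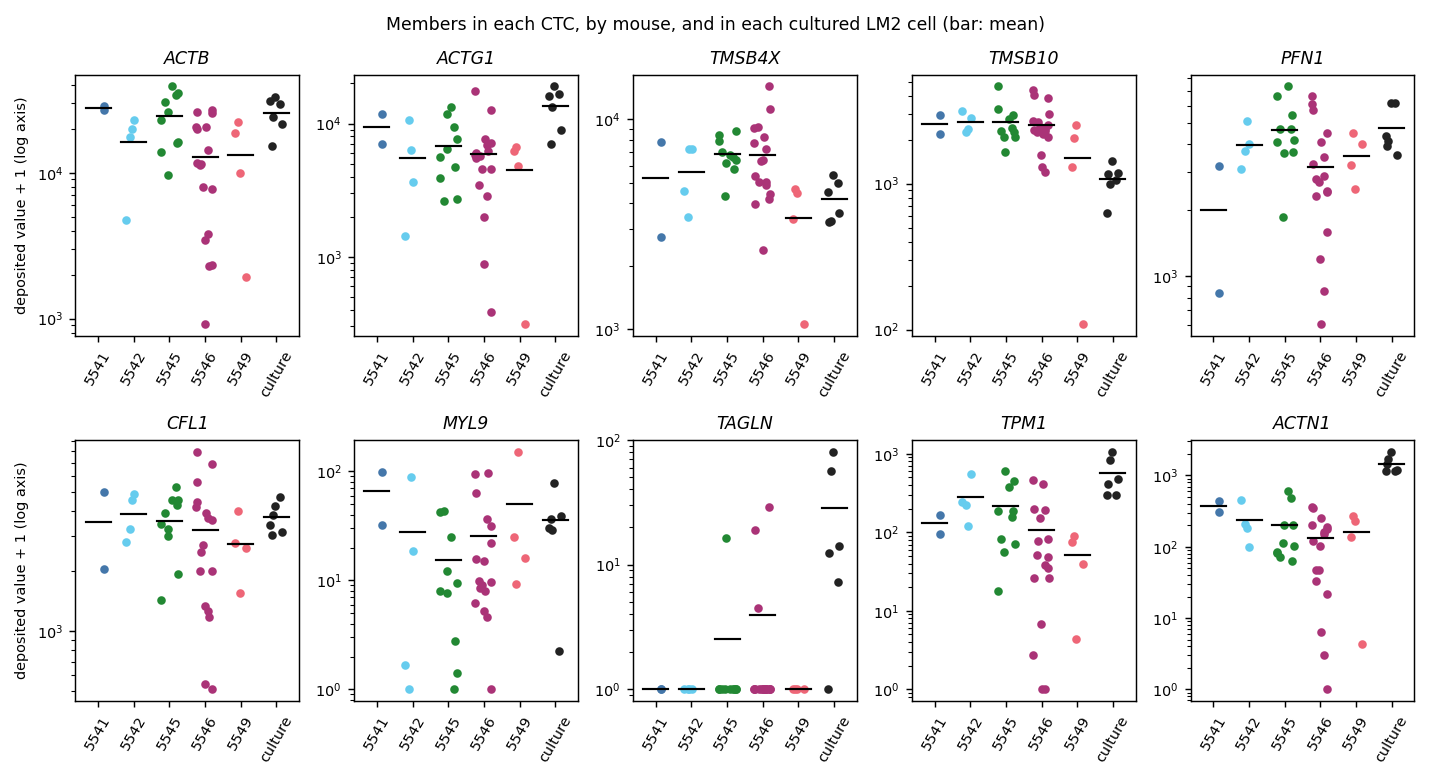
Value of each of the 10 genes in each cell, with 1 added, on a log axis, in the CTCs of the 5 mice and in cultured LM2 cells. Bars are group means. ACTN1 lay between 0 and 614 in CTCs, below all 6 cultured cells, and TMSB10 lay above the highest cultured cell in 33 of 37 CTCs.

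TMSB10 (ENSG00000034510, chr2:84905656-84906671, plus strand) encodes thymosin beta 10. Its value was 2186 and 2974 in the 2 CTCs of mouse 5541, and in the 4 CTCs of mouse 5542 it was 2809, 2273, 3128 and 2373. In the 4 CTCs of mouse 5549 it was 2514, 1294, 2048 and 108. The CTCs of mouse 5545 ranged from 1655 through a median of 2345 to 4636, and those of mouse 5546 from 1209 through 2365 to 4387. The cultured cells ranged from 631 through 1113 to 1439. Values above the highest cultured cell were found in 33 of 37 CTCs, and only 5549-6 lay below the lowest. The mean over mice was 2379 ± 499 (SD, n = 5) against 1077 in culture, a log2 ratio of 1.11 ± 0.36 that was above 0 in 5 of 5 mice, as it was in 1.04% of all genes tested. In CPM, the log2 ratio was 1.86 ± 0.27. The edgeR estimate was 2.44 (unadjusted p = 0.000906), and this did not pass after adjustment (adjusted p = 0.999992, edgeR).

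TMSB4X (ENSG00000205542, chrX:12975110-12977227, plus strand) encodes thymosin beta 4, the main monomer-sequestering protein of many cells. The means of mice 5541, 5542, 5545, 5546 and 5549 were 5265, 5600, 6824, 6771 and 3385, against 4164 in culture. Cultured cells lay between 3254 and 5411, and 21 of 37 CTCs were above them. Mouse 5549 was the one mouse whose mean was below the culture with the deposited values, and the mean of each mouse was above the culture in CPM. The log2 ratio over mice was 0.38 ± 0.41 as deposited and 1.10 ± 0.37 in CPM, where 4.88% of all genes were higher in each mouse. The edgeR estimate of 1.70 (unadjusted p = 0.00482) did not pass after adjustment (adjusted p = 0.999992, edgeR).

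Both thymosin genes have short transcripts, of 461 bases for TMSB10 and 622 bases for TMSB4X, and the ratios of all genes moved with transcript length. The median log2 ratio with deposited values was -0.71 for 672 genes with transcripts under 1000 bases, -1.50 from 1000 to 2000 bases and -1.85 from 2000 to 4000 bases. Above 4000 bases it was -1.46. TMSB10 was higher than 86.8% of 136 genes whose transcript length is within 25% of its own, and TMSB4X was higher than 83.0% of 277 such genes. ACTN1 was higher than 14.2% of 2184 genes of its length and TAGLN higher than 0.925% of 2163. TPM1 was higher than 22.0% of 909 genes. The part of transcript length in these ratios was not tested.

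**Figure D2:**
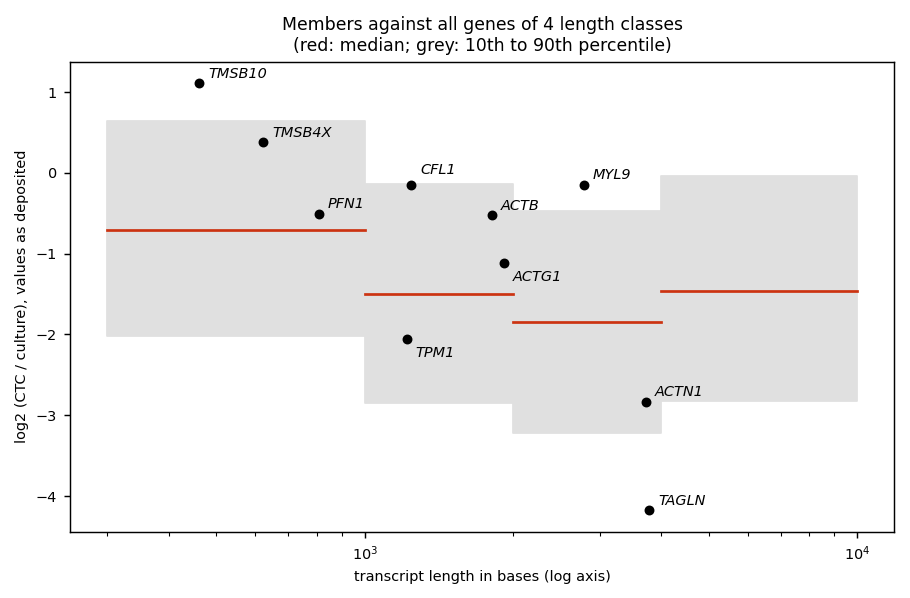
Log2 ratio of CTCs to culture with deposited values against the length of the transcript on a log axis, for the 10 genes (points) and for all genes of 4 length classes (red line, median; grey, 10th to 90th percentile). TMSB10 at 1.11 is above the grey range of its class, and TAGLN at -4.18 is below that of its class.

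ACTN1 (ENSG00000072110, chr14:68874128-68979440, minus strand) encodes alpha-actinin-1, which links filaments to each other and to integrin adhesions. It was measured at 302 and 440 in mouse 5541, at 97.2, 205, 454 and 182 in mouse 5542, and at 229, 137, 273 and 3.33 in mouse 5549. In mouse 5545 the values ran from 62.8 through a median of 108 to 614, and in mouse 5546 from 0 through 120.0 to 359. Cultured cells ran from 1141 through 1335 to 2155. All 37 CTCs lay below all 6 cultured cells, with deposited values and in CPM, as was so for 0.458% and 0.0798% of all genes tested. The mean over mice was 219 ± 93.7 against 1469 in culture, a log2 ratio of -2.83 ± 0.57 as deposited and -2.16 ± 0.57 in CPM. The 4-fold rule was missed by 1 mouse, 5541, at -1.98, and ACTN1 met a 2-fold rule that 25.1% of all genes met as lower and 0.262% as higher, the latter with none of the 10. The edgeR estimate was -1.48 (unadjusted p = 0.0391), which did not pass after adjustment (adjusted p = 0.999992, edgeR).

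TAGLN (ENSG00000149591, chr11:117199370-117207464, plus strand) encodes transgelin, an actin-binding protein of smooth muscle and of many fibroblasts. It was above 0 in 4 of 37 CTCs (10.8%, exact 95% binomial interval 3.03% to 25.4%), with values of 15.4 in 5545-3, 18.0 in 5546-c8, 28.1 in 5546-s1 and 3.45 in 5546-s2. It was above 0 in 5 of 6 cultured cells, from 6.27 to 79.3, and LM-10 was at 0. Of the 4 CTCs with TAGLN, 3 were within the range of the cultured cells with reads, and 5546-s2 was below it. Summed over cells, 94 reads fell on it in CTCs (2.02 CPM) and 109 in culture (19.7 CPM). Mice 5541, 5542 and 5549 had 0 reads, which with a limit of 3 reads per mouse makes them at least 18.5-fold, 42.0-fold and 29.1-fold lower than culture in CPM. Mice 5545 and 5546 were lower 16.7-fold and 5.22-fold. The cultured cell LM-3 held 58 of the 109 reads, and without it the culture was at 11.2 CPM, the bounds were 10.5-fold, 23.8-fold and 16.5-fold, and mice 5545 and 5546 were lower 9.45-fold and 2.95-fold. The log2 ratio of -4.18 ± 0.93 depends on the number added to the means, and in CPM the nearest mouse was at -1.78, inside the 4-fold rule. The edgeR estimate was -3.77 (unadjusted p = 0.140, adjusted p = 0.999992, edgeR), and -2.91 without LM-3. PCSK7, which overlaps TAGLN on the other strand, had a mean of 30.1 in CTCs and 18.3 in culture, and the reads were counted without strand.

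TPM1 (ENSG00000140416, chr15:63042620-63071915, plus strand) encodes an alpha tropomyosin. The means of mice 5541, 5542, 5545, 5546 and 5549 were 129, 284, 217, 106 and 51.1, against 561 in culture. CTCs ranged from 0 through a median of 81.2 to 598, cultured cells from 295 to 1064, and 31 of 37 CTCs were below the lowest cultured cell. The log2 ratio was -2.06 ± 0.96 as deposited and -1.34 ± 0.84 in CPM, below 0 in each mouse under both, as was so for 60.3% and 34.7% of all genes. The edgeR estimate was -0.63 (unadjusted p = 0.434, adjusted p = 0.999992, edgeR).

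ACTB (ENSG00000075624, chr7:5526409-5563902, minus strand) and ACTG1 (ENSG00000184009, chr17:81509413-81523847, minus strand) encode beta and gamma actin, the actins of nonmuscle cells. ACTB ranged from 918 through 17569 to 39081 in CTCs and from 15193 through 26993 to 32994 in culture. Its log2 ratio was -0.52 ± 0.51 as deposited, 0.19 ± 0.46 in CPM and 0.84 by edgeR, so no direction can be given. ACTG1 ranged from 311 through 5834 to 17669 in CTCs and from 7058 through 14660 to 19015 in culture, with 27 of 37 CTCs below the lowest cultured cell. Its log2 ratio was -1.12 ± 0.40 as deposited, -0.38 ± 0.32 in CPM and 0.21 by edgeR. The cells with the least ACTB were 5546-s9 at 918, 5549-6 at 1922, 5546-s7 at 2311 and 5546-s1 at 2326. Annotated pseudogenes of these 2 genes, which share sequence with them, have 12 and 19 rows in the table and hold reads equal to 0.728% and 0.979% of those on the genes.

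PFN1 (ENSG00000108518, chr17:4945652-4949061, minus strand) encodes profilin 1 and CFL1 (ENSG00000172757, chr11:65823022-65862026, minus strand) cofilin 1. PFN1 ranged from 606 to 7332 in CTCs and from 3577 to 6187 in culture. CFL1 ranged from 506 to 7976 in CTCs and from 3044 to 4699 in culture. The log2 ratios were -0.50 ± 0.46 for PFN1 and -0.15 ± 0.19 for CFL1 as deposited, and 0.20 ± 0.46 and 0.54 ± 0.12 in CPM. Both groups overlap for both genes, and CFL1 had the smallest spread between mice of the 10 genes.

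MYL9 (ENSG00000101335, chr20:36541497-36551447, plus strand) encodes a regulatory light chain of myosin II. It was above 0 in 34 of 37 CTCs, with a median of 11.1 and a highest value of 151, and ranged from 1.25 to 77.9 in culture. The mouse means were 64.7, 26.7, 14.4, 24.7 and 49.5 in the order of mouse number, against 35.0 in culture. Mice lay on both sides of the culture, and the log2 ratio was -0.15 ± 0.83.

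**Figure D3:**
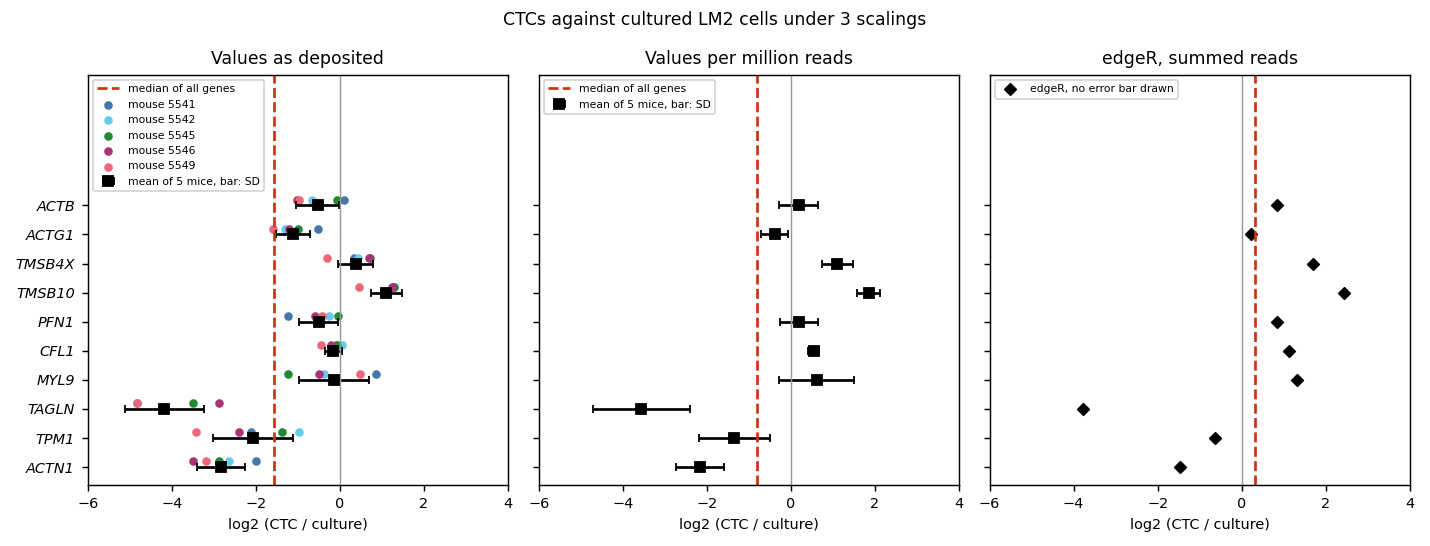
Log2 ratio of CTCs to cultured cells for the 10 genes with deposited values (colored points, each mouse; square and bar, mean and SD over 5 mice), in CPM (mean and SD) and in the edgeR fit. The dashed line is the median of all genes. TMSB10 and TMSB4X lie right of 0 and ACTN1, TPM1 and TAGLN left of it in all 3 panels.

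ACTN1, TPM1 and TAGLN lay below the median of all genes in all 3 fits. The number of the 10 genes above it was 7 with deposited values and in CPM and 6 by edgeR, where ACTG1 was also below. Against genes with a mean of at least 1000, whose median was -0.64 with deposited values and 0.42 in CPM, 6 and 4 of the 10 were above, with ACTG1 below in both and ACTB and PFN1 below in CPM. The difference from the median of all genes was 2.67 for TMSB10 and 1.94 for TMSB4X on the log2 scale with deposited values, and 2.67 and 1.91 in CPM. For ACTN1 it was -1.27 and -1.35. The 10 genes took 4.93% ± 0.89 of reads in CTCs (mean and SD over 5 mice) and 4.10% in culture, where cells ranged from 2.80% to 5.60%. CTCs ranged from 1.03% in 5549-6 to 8.17% in 5546-s6.

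Ratios of the reads of 2 genes in the same cell do not depend on scaling. Of the 45 pairs of the 10 genes, 3 had no overlap between the CTCs with reads on both genes and the cultured cells, and each had ACTN1 as the denominator. TMSB10 to ACTN1 ranged from 0.553 to 0.972 in cultured cells and from 4.54 through a median of 15.1 to 587 in 36 CTCs. The ratio of summed reads was 0.754 in culture and between 6.96 and 20.1 in the 5 mice, so each mouse was above the culture. In 5546-s4, with 3125 reads on TMSB10 and 0 on ACTN1, the ratio was at least 1042 with a limit of 3 reads. TMSB4X to ACTN1 was 1.93 to 4.32 in culture and 9.11 or more in CTCs, and CFL1 to ACTN1 was 1.97 to 4.09 in culture and 6.14 or more in CTCs. Of all 9163 genes examined, 3.54% had reads relative to TMSB10 that were lower in all CTCs than in all cultured cells, so ACTN1 is 1 of 324 such genes. The same share was not computed relative to TMSB4X or CFL1. ACTN1 by itself lay below all cultured cells in every CTC with deposited values, as did 0.458% of all genes tested.

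In log2 ratio both actins lay between the thymosins and ACTN1. ACTG1 relative to TMSB10 was below the cultured cells in 36 of 37 CTCs, and TMSB4X relative to PFN1 was above them in 33. ACTB relative to ACTG1 was 1.74 to 2.42 in cultured cells and 0.373 to 11.7 in CTCs, of which 21 were above and 7 below the culture. The ratio of the 2 actins in single CTCs was thus on both sides of the narrow range of the culture. By summed reads, ACTB relative to ACTG1 was 1.92 in culture and between 2.09 and 3.94 in the 5 mice, so each mouse was above the culture. TMSB4X relative to TMSB10 was 2.79 to 7.13 in culture, and 24 of 37 CTCs were below that.

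**Figure D4:**
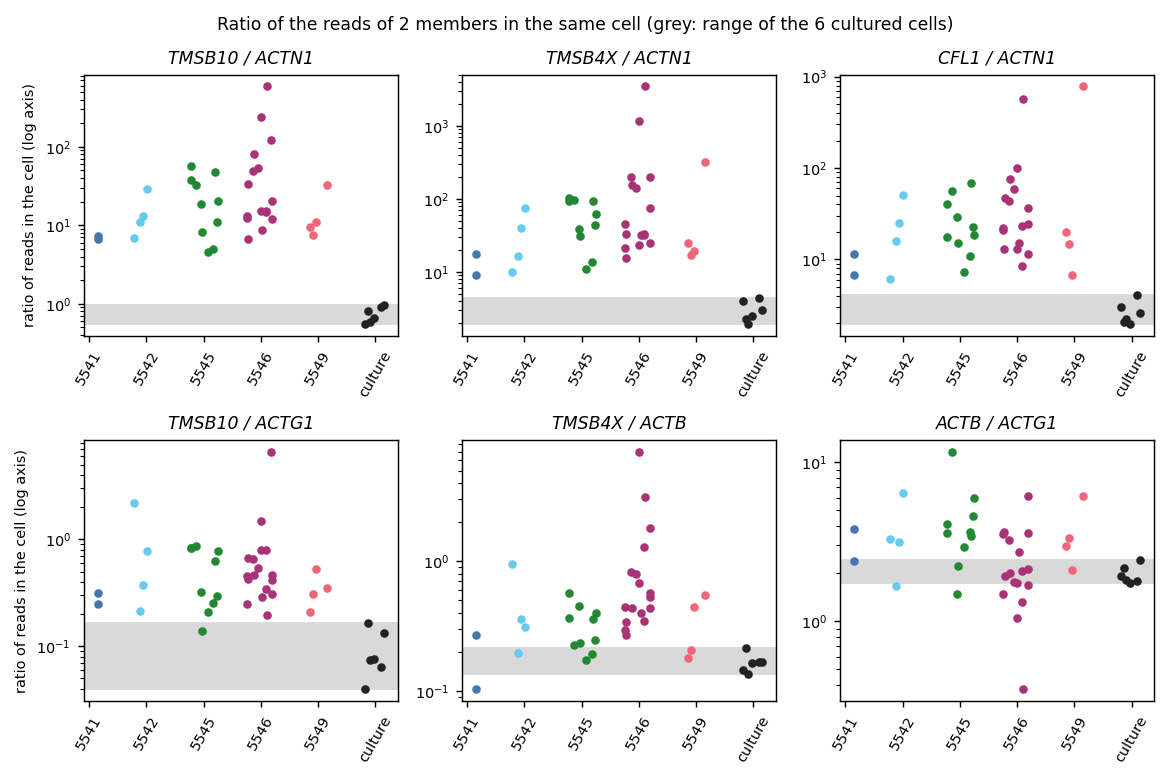
Ratio of the reads of 2 genes in the same cell, on a log axis, for CTCs by mouse and for cultured cells, with the range of the 6 cultured cells in grey. The TMSB10 to ACTN1 ratio was 4.54 or more in each CTC with ACTN1 reads and 0.972 or less in culture; the other upper panels also do not overlap, and the lower ones do.

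Levels of different genes were compared per kilobase of exon, as the mean over mice. TMSB10 led in CTCs at 5162 ± 1082 per kilobase, followed by ACTB at 4288 ± 1537, TMSB4X at 3270 ± 824, PFN1 at 2165 ± 611, ACTG1 at 1584 ± 463 and CFL1 at 576 ± 74.3. In culture ACTB led at 5849, followed by ACTG1 at 3329, PFN1 at 2958, TMSB4X at 2445 and TMSB10 at 2337. Neighbors in the order of the CTCs from TMSB10 to ACTG1 differed by less than the sum of their SDs over mice. ACTN1, MYL9, TPM1 and TAGLN followed far lower, at 15.3, 12.8, 10.7 and 0.136. Exons of all isoforms make TPM1 14700 bases long, while its MANE Select transcript has 1217, and with the length of that transcript 4 of the 10 genes keep their rank in CTCs, TPM1 comes before ACTN1 and ACTB comes first.

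Among CTCs, the SD of log2 values was 0.68 for TMSB4X, 0.84 for PFN1, 0.86 for TMSB10, 0.91 for CFL1, 1.27 for ACTG1 and 1.33 for ACTB. Over 127 genes with a mean of at least 1000 the median SD was 1.09. The thymosins, profilin and cofilin thus varied less, and both actins more, than genes of high level at the median. The SD was 1.96 for MYL9, 2.11 for ACTN1 and 2.36 for TPM1, where the median over 7019 genes with a mean of at least 8 was 2.25. TMSB4X had a mean of 5077 over the c libraries of mouse 5546 and 8677 over the s libraries, ranging from 2382 to 8281 and from 4170 to 14353, a difference between cells of 1 mouse that was not tested.

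Spearman correlations over the 37 CTCs describe which genes were high in the same cells, and CTCs share mice and differ in depth. ACTB correlated with ACTG1 at 0.71 and with CFL1 at 0.70, PFN1 with CFL1 at 0.63, ACTG1 with ACTN1 at 0.58 and TPM1 with ACTN1 at 0.53. TMSB4X and ACTN1 were at -0.02 with deposited values and -0.39 in CPM, and TMSB10 and ACTN1 at 0.15 and -0.12. ACTB and ACTG1 were at 0.52 within mouse 5545, 0.88 within the c libraries and 0.79 within the s libraries of mouse 5546, and 0.56 in CPM. ACTB and TMSB4X were at 0.50 with deposited values and 0.07 in CPM, so their relation rests on the scaling. The share of mitochondrial reads moved with several genes, at -0.75 for CFL1, -0.63 for TPM1, -0.62 for ACTB and -0.56 for ACTN1, and its part in these correlations was not tested. With the 3 CTCs of more than 20% mitochondrial reads left out, the median over all pairs was 0.21 in place of 0.25.

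**Figure D5:**
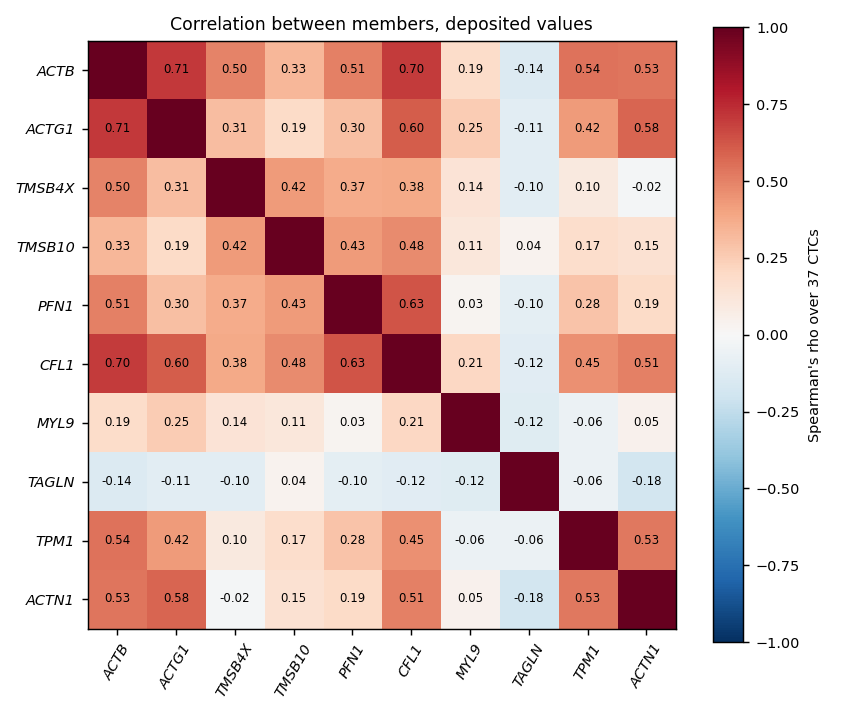
Spearman's rho between the 10 genes over 37 CTCs with deposited values. The block of ACTB, ACTG1 and CFL1 has values from 0.60 to 0.71, and TAGLN, at 0 in most CTCs, has values from -0.18 to 0.04.

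The protein-coding genes most like each member over the 37 CTCs, of 6473 detected in at least 50% of them, were found by Spearman's rho. ENO1, a glycolytic enolase, was closest to ACTB and CFL1, both at 0.74, and YWHAQ and PDIA6 came next, at 0.74 and 0.71. ACTG1 was nearest to ACTB and to SAE1, at 0.71 and 0.70. TMSB4X was nearest to LMNA, the gene of lamin A, at 0.66 and to GAPDH at 0.58, and TMSB10 to S100A13 at 0.63 and MYL12B, another myosin light chain, at 0.60. PFN1 was nearest to OAZ1 at 0.77 and TXN at 0.70, TPM1 to PGK1 at 0.75 and NDUFS6 at 0.71, and ACTN1 to ANXA6 at 0.75 and SELENOS at 0.74. MYL9 was nearest to PCBP1 at 0.54 and ARHGDIA at 0.53. TAGLN, with reads in few CTCs, was nearest to PMF1-BGLAP at 0.54 and TCN2 at 0.51. The median over all genes was between -0.03 and 0.19 for each of the 10.

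The other actin genes were taken from 7 lists with 83 genes, of which 74 had a mean of at least 8 in either group. The 4-fold rule was met by 1 as higher and by 0 as lower, against 0.0655% and 5.31% of all genes. The median log2 ratio of the 74 genes was -0.74 with deposited values and -0.07 in CPM, where all genes had -1.56 and -0.81. The gene that met the rule was ACTA2, the actin of smooth muscle, with a log2 ratio of 3.51 ± 0.82. It had a mean of 17.3 in CTCs and 0.407 in culture, where 2 reads fell on it. Its median over CTCs was 2.10 and its highest value 111, and with medians in place of means over cells it did not meet the rule. The CPM of summed reads was 50.9 times that of the culture, with an exact 95% counting interval from 14.0 to 421. The edgeR estimate for ACTA2 was 6.40 (unadjusted p = 0.0123, adjusted p = 0.999992, edgeR). The coding sequences of ACTB and ACTG1 are near copies of those of muscle actins, and reads that match several of them equally were not counted. Mouse reads on ACTA2 cannot be told apart from human reads, so this value is uncertain.

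The ratios of single genes that follow are with deposited values, and each kept its sign in CPM. Among genes of monomer binding, capping and turnover, GSN, which encodes gelsolin, a protein that severs and caps filaments, had a mean of 495 ± 363 in CTCs against 84.5 in culture, a log2 ratio of 2.12 ± 1.34. PFN2 (-2.84 ± 1.71), which encodes another profilin, and CAP2 (-2.22 ± 1.21), which encodes a protein that binds monomers, were at the other end of that list. Of the formins and nucleation promoters, DIAPH3 was at -2.45 ± 0.72 and WASF1 at -2.41 ± 1.41, and none of 14 genes met the rule. None of the 9 genes of the Arp2/3 complex, which nucleates branched filaments, met it, and their median was -0.62 with deposited values and 0.08 in CPM, so it has no fixed direction. Of contractile genes, CNN2, which encodes calponin 2, was at -2.11 ± 0.99 and MYLK, a kinase of myosin light chains, at 0.59 ± 1.06. RHOB was at 1.17 ± 1.54. ACTG2 was at 1.25 ± 2.94, with mouse means from 13.6 to 3653 against 82.3 in culture, and 1 CTC, 5541-5, had 7305. Cross-linkers and adhesion adaptors, the class of ACTN1, had a median of -1.19 over 13 genes with deposited values and -0.43 in CPM. By edgeR only ACTN4, at -0.27, and ENAH, at -0.42, were below 0 among them, so this list has no fixed direction.

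Markers of other cells were read beside these values. Of the platelet list, PPBP and PF4 had means of 0.0635 and 0.256 in CTCs and 0 in culture. GP9 had a mean of 4.23 in CTCs and 0 in culture, higher in 4 of 5 mice. It had reads in 4 CTCs, with 142 of its 169 reads in 5542-8. ITGA2B and TUBB1 had means of 0.288 and 0.0390 in CTCs and 0.538 and 0.287 in culture. The culture values of ITGA2B and TUBB1 rest on 2 reads and 1 read, so no direction is given for them. The list summed to at most 77.3 in a CTC, in 5542-8, where GP9 was at 76.7. Erythroid genes had reads in CTCs and were at 0 in culture, with a mean HBB of 1482, higher in 5 of 5 mice, and a sum of 1289 at the median and 15571 in 5549-6. The sum had a rank correlation of 0.06 with TMSB10 and 0.00 with TMSB4X over CTCs, and of -0.39 with ACTB. Leukocyte markers summed to between 30.2 and 2485 in CTCs and between 213 and 1912 in culture. PTPRC, which encodes CD45, had a mean of 3.82 ± 5.82 in CTCs and 0 in culture. It had reads in 11 CTCs, with 381 of its 432 reads in 5546-s9. TYROBP had a mean of 9.88 in CTCs and 0 in culture, and CORO1A 24.7 and 0.198. CD74, LAPTM5 and SRGN had 234, 118 and 150 in CTCs and 242, 277 and 397 in culture. The neutrophil list summed to at most 571 in a CTC and 0 in culture. The smooth muscle and fibroblast list, which includes ACTA2 and ACTG2, summed to between 0 and 7392 in CTCs, the highest in 5541-5, and to at most 409 in culture. Of this list COL1A1 had a mean of 32.4 in CTCs and 10.0 in culture and SMTN 47.2 and 63.2, while MYH11, PDGFRB and DCN had 0.159, 0.0204 and 0.0158 in CTCs. The mesenchymal list had a median log2 ratio of -1.16 over 7 genes with deposited values and -0.39 in CPM, with VIM at 0.65 ± 0.38, AXL at -1.27 ± 0.45 and ZEB1 at -2.51 ± 0.64. By edgeR only ZEB1, at -1.14, was below 0 among those 7 and AXL was at 0.06, so the list has no fixed direction. The epithelial list had a median of -0.31 over 5 genes and 0.36 in CPM, with KRT19 at 1.94 ± 1.57 and KRT18 at -1.22 ± 0.80. EPCAM, with reads in 8 of 37 CTCs, was at -3.46 ± 1.77, at -2.92 in CPM and at -1.65 by edgeR. KRT8, at the median, changed sign between deposited values and CPM, and CLDN4 was at 0.27 ± 2.28. KRT18 was at 0.17 by edgeR, so it has no fixed direction either. Human and mouse reads on these blood cell genes cannot be told apart here, and the part of red-cell RNA in the ratios was not tested. Without 5549-6 the 4-fold rule gave TAGLN alone among the 10 genes and ACTA2 alone among the 83.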

How the data were processed

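Values of 37 CTCs and 6 cultured LM2 cells, from the libraries kept by the authors, were used. The deposited signal is the read count of a gene after scaling by the authors with DESeq2 (1.42.1) size factors. Alignment by the authors used STAR 2.7.10a, the build GRCh38 and GENCODE release 38, and uniquely mapped reads were counted without strand. Of 47 libraries, 4 CTC libraries were excluded by the authors. Dividing each value by the smallest of its cell gave whole reads for 100% of values (tolerance 0.001), which were used for depth, CPM and summed reads. Gene coordinates are from GENCODE release 44, which matched 25684 of 25739 identifiers. SMARTseq2 libraries carry no molecular identifiers, so intervals cover counting error only, and cells of 1 mouse are not independent.

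The mean of the CTCs of each mouse was compared with the culture mean after adding 1. A gene met the rule of size at a 4-fold difference in the same direction in each of 5 mice, with the larger average at least 8. Reads summed per mouse were also compared with the summed culture by edgeR 4.0.16 (quasi-likelihood, TMM) and DESeq2 1.42.0 in R 4.3.3. With 1 culture, these fits assume that it varies as the mice do, and p-values measure only the spread between mice. In edgeR, 0 genes passed at an adjusted p under 0.05, 140 were higher and 101 lower at an unadjusted p under 0.05, and DESeq2 called 14 as higher and 0 as lower. Steps were checked on simulated data. The 10 genes and all lists were chosen with earlier results of these data known. Named genes are the 10, those of the actin lists that met the rule or were among the 5 most extreme in each direction, the 2 closest by rank correlation to each of the 10, and markers of other cells. Calculations ran in Python 3.11.15 (scipy 1.17.1, pandas 2.3.3, numpy 2.4.6).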

Additional observations from a re-analysis of the deposited data

Results flagged for a closer look

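Within a mouse or the culture, the highest or lowest of 4 to 10 cells was set against the others by the gap to its neighbor as a share of the range, for the 10 genes and their summed share of reads. Of 42 groups examined, 3 held a cell that stood apart, where chance gives about 1 in 20. TMSB10 was at 4636 in 5545-11, with the next of 10 CTCs of mouse 5545 at 3227. MYL9 was at 151 in 5549-2, with the next of 4 CTCs at 24.1. TAGLN was at 15.4 in 5545-3, and the other CTCs of mouse 5545 were at 0.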

How the results depend on the processing

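The count of the 10 genes past the 4-fold rule was 1, TAGLN. It was 0 in CPM, in CPM over non-mitochondrial genes and with 8 added to the means, and 2 with a 2-fold rule, ACTN1 then being added. Leaving out 1 mouse or 1 cultured cell gave 1 to 2, with ACTN1 added without mouse 5541 or cultured cells 2, 10 or P3. The count of actin pathway genes was 1, ACTA2, and was 0 with 8 added to the means. With a 2-fold rule it was 10 of 74 tested, ACTA2 as higher and the rest as lower, beside 0.262% and 25.1% of all genes. The count was 1 to 2 without a mouse or cultured cell, DIAPH3 being added without mouse 5546. With medians over cells it was also 1, but the gene was DIAPH3, as lower, and not ACTA2. By edgeR on summed reads, with TMM, with relative log expression scaling, without the libraries of mouse 5546 with the letter s, or without 5545-6, and by DESeq2, both counts were 0. They were also 0 in each edgeR fit that left out a mouse or a cultured cell. Without a filter, edgeR called 20 genes as higher and 7 as lower over all genes, 1 of them of the actin pathway and 0 of the 10. Over 37 alternatives, TMSB10, TMSB4X, TAGLN, TPM1 and ACTN1 kept their direction in each, while ACTB, PFN1 and CFL1 changed it in 19, ACTG1 in 17 and MYL9 in 21. Most alternatives repeat a scaling with some cells left out, so they are not independent. These counts depend on how many alternatives used each scaling. The ratio of TMSB10 ranged from 1.00 to 2.60 and that of ACTN1 from -3.05 to -1.25. The median correlation between the 10 genes was 0.25, 0.10 in CPM, and 0.47 and 0.40 within the c and s libraries of mouse 5546. With MANE Select lengths, 4 of 10 genes kept their rank. The causes of these changes were not tested. Ratios within cells, values without 5549-6 or without CTCs of high mitochondrial share, transcript length, the comparison with genes of high mean, TAGLN without LM-3 and edgeR fits without single cultured cells, the s libraries or 5545-6 were chosen after seeing the data. No paired analysis was possible because replicate numbers only name picked cells and the culture is 1 sample. Depth limits TAGLN and MYL9, with few reads per cell.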
